A study of Homo sapiens with 6 samples.

Results

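The endoplasmic reticulum unfolded protein response was followed through 37 genes in PC3, a long-established line derived from a human prostate cancer, after siRNA against VEGF-C, against NRP-2 or of scrambled sequence. The genes were chosen by name: stress sensors and their transcription factors, chaperones, disulfide isomerases, degradation factors and translocation factors. All array probe sets annotated to a single one of these genes were taken. That gave 96 probe sets for 36 of the 37 genes, out of 19775 genes with such a probe set. SYVN1, the ubiquitin ligase at the centre of endoplasmic reticulum degradation, was annotated only together with a microRNA gene and was not measured here. DERL3, a Derlin of secretory cells, was below the low-value filter on its 3 probe sets, whose mean log2 values were 1.88, 2.29 and 2.47. The other 35 genes were tested among 11131 genes.

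Each of the 3 groups had 2 arrays (Affymetrix HG-U133 Plus 2.0). Every group was PC3 grown in RPMI medium with 10% serum, transfected with DharmaFECT, and collected after 72 h, with biotin-labelled material made from 6 ug of total RNA. The siRNAs were pools, and per the labels the NRP-2 pool came from Santa Cruz Biotechnology and the VEGF-C pool from Dharmacon, so target and supplier cannot be told apart. No supplier was named for the scrambled siRNA. VEGF-C is a secreted growth factor and NRP-2 one of its receptors, and the series asked how this axis regulates autophagy in cancer. Whether the 2 arrays of a group stem from separate cultures is not stated in the labels. A p-value here rests on how far these arrays differ, and that spread may be technical. The values describe bulk RNA, in which fewer cells of a type and less RNA per cell cannot be told apart.

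When unfolded proteins build up in the endoplasmic reticulum, the chaperone BiP (HSPA5) leaves the sensors IRE1 (ERN1), PERK (EIF2AK3) and ATF6, which then become active. IRE1 splices the mRNA of XBP1 into a form that encodes a strong transcription factor, PERK slows translation while favouring that of ATF4, and ATF6 is cut in the Golgi to release a transcription factor. XBP1 and ATF6 raise chaperones, isomerases, degradation factors and the protein import machinery, in part through the endoplasmic reticulum stress elements of the promoters. The probe sets read total mRNA of XBP1 and cannot tell its spliced from its unspliced form. Nor do they read the phosphorylation or cleavage of the sensors.

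The promoters are shown because such elements are known to act on many of these genes. RefSeq promoters (GRCh38.p14) were matched by symbol for 33 of the 37 genes, and the 250 bases before each start site were searched on both strands. The endoplasmic reticulum stress element ERSE was searched as CCAAT, then any 9 bases, then CCACG, and 7 of the 33 genes held it (21.2%), against 25 of 27305 genes (0.0916%). ERSE-II, searched as ATTGG, then any 1 base, then CCACG, was in 3 of the 33 (9.09%), against 18 of 27305 (0.0659%). The core of the XBP1 element UPRE, searched as TGACGTGG, was in 3 of the 33 (DNAJC10, HYOU1 and SSR3, 9.09%), against 213 of 27305 (0.78%). The half-site CCACG, which lies inside both stress elements and, as its reverse complement, inside the UPRE core, was in 25 of the 33 (75.8%), against 10245 of 27305 (37.5%). A match describes letters only, and a promoter without one lacks these letters in this window and nothing more. The ERSE and ERSE-II matches follow, each written 5′ to 3′ in the direction of the motif, with the fixed letters of the motif in capitals and the spacer in lower case.
XBP1, ERSE, chr22:28800603-28800621, strand -: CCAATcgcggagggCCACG
HSPA5, ERSE, chr9:125241391-125241409, strand -: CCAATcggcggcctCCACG
HSP90B1, ERSE, chr12:103930216-103930234, strand +: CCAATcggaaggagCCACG
HSP90B1, ERSE, chr12:103930321-103930339, strand -: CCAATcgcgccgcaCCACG
HYOU1, ERSE-II, chr11:119057380-119057390, strand +: ATTGGaCCACG
HYOU1, ERSE-II, chr11:119057274-119057284, strand +: ATTGGaCCACG
SDF2L1, ERSE-II, chr22:21642114-21642124, strand -: ATTGGtCCACG
CRELD2, ERSE, chr22:49918554-49918572, strand -: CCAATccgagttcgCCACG
CALR, ERSE, chr19:12938384-12938402, strand -: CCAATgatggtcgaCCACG
CANX, ERSE, chr5:179698778-179698796, strand +: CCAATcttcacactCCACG
PDIA6, ERSE, chr2:10812853-10812871, strand -: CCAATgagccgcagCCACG
HERPUD1, ERSE-II, chr16:56932025-56932035, strand +: ATTGGgCCACG

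For 5 genes whose values recur in the comparisons, the 200 bases before the start site were printed on the strand of the gene. In HSPA5 and HERPUD1 the capitals mark ERSE and ERSE-II. In SDF2L1 they mark ERSE-II on the opposite strand. In DNAJB9 and MANF, which held neither element, they mark the half-site on either strand.
HSPA5, chr9:125241344-125241543, strand -: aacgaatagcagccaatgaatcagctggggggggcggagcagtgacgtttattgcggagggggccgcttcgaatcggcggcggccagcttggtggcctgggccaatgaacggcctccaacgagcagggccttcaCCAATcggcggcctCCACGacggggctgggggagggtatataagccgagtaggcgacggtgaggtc
HERPUD1, chr16:56931942-56932141, strand +: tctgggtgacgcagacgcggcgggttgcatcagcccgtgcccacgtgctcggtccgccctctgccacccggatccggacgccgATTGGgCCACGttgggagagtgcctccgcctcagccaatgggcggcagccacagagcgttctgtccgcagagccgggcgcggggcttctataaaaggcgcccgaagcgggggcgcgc
SDF2L1, chr22:21642102-21642301, strand +: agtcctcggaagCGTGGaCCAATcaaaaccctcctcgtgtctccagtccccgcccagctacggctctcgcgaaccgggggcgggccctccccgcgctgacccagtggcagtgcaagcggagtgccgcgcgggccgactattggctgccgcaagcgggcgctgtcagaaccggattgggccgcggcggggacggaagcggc
DNAJB9, chr7:108569674-108569873, strand +: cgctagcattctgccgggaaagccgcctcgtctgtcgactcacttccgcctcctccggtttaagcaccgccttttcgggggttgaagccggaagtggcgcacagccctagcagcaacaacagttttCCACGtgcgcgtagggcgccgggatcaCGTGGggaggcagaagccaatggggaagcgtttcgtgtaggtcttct
MANF, chr3:51385091-51385290, strand +: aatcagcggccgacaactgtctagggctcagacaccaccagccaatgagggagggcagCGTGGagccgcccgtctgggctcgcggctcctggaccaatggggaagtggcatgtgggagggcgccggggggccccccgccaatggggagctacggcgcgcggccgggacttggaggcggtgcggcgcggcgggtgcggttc

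The array medians lay between 3.0 and 3.07 on the log2 scale. VEGFC mRNA was 3.95 log2 units lower with its siRNA (15.4-fold). NRP2 mRNA had values of 3.41 and 2.81 with its own siRNA, near the floor, against 4.77 and 4.92 on the scrambled arrays, so the size of that difference is not well measured. NRP2 was also higher on both VEGF-C siRNA arrays (5.51 and 6.01) than on the scrambled arrays, by 0.91 (limma adjusted p 0.257, unadjusted p 0.0157). Each target was lower on both arrays of its own siRNA than on the 4 others. All 8 epithelial and PC3 markers had values of at least 11.74 on every array. Of the luminal prostate markers, 2 of the 5 named averaged at least log2 4 (KLK3 at 6.46 and TMPRSS2 at 8.51), while KLK2 and FOLH1 lay near the floor. PC3 is known to have lost most luminal features. Of the fibroblast markers 3 of 8 (COL1A1, COL3A1 and ACTA2) and of the leukocyte and endothelial markers 2 of 7 (LYZ and PECAM1) averaged at least log2 4, and DCN, LUM, PTPRC, CD3D, CD14, VWF and CDH5 lay near the floor. The mean log2 value of the G2 and mitosis genes differed most between arrays: 10.08 and 8.44 (scrambled), 10.96 and 10.23 (VEGF-C siRNA), 10.79 and 9.78 (NRP-2 siRNA). It was higher on array 1 of each group and higher with either siRNA than with the scrambled siRNA on the array of the same number. All 37 tested genes of that list had differences above 0 with both siRNAs (medians of 1.31 and 1.02), and so did 22 and 27 of the 28 tested S phase and replication genes (medians of 0.44 and 0.91). Of the 37, 30 were higher on both VEGF-C siRNA arrays than on both scrambled arrays (26.8% of all genes) and 7 overlapped. With NRP-2 siRNA 4 were higher (25.3%) and 33 overlapped. In the limma fit 3 and 0 of the 37 had an unadjusted p under 0.05 (14.8% and 13.3% of all genes). The part of the G2 and mitosis mean in the results was not tested. An alternative fit carries this mean as a covariate. Because the mean itself differed between the groups, that fit cannot tell it apart from the siRNA.

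No gene, member or not, passed an adjusted p of 0.05 in any of the 3 comparisons (limma, Benjamini-Hochberg over 11131 genes; 0% called), so the genes are described by their values and by an unadjusted p of 0.05. Against scrambled siRNA, VEGF-C siRNA left 4 of the 35 genes higher at that p (6.95% of all genes were) and 0 lower (7.8%). NRP-2 siRNA left 2 higher (6.43% of all genes) and 0 lower (6.85%). Between both siRNAs, 2 were higher with NRP-2 siRNA (9.54% of all genes) and 4 lower (8.66%). Over all genes the counts at this p were 1642, 1478 and 2026. The differences were spread on both sides of 0: 17, 16 and 14 of the 35 differences lay above 0 (49.3%, 51.8% and 52.7% of all genes), with medians of -0.000125, -0.06 and -0.06 log2 units, against -0.004, 0.01 and 0.02 for all genes. The lowest adjusted p among the members was 0.238, 0.231 and 0.119. When the fit carried the G2 and mitosis mean of each array as a covariate, the medians were 0.16, 0.02 and -0.08, with 28 of 35 differences above 0 in the first comparison (48.7% of all genes). Without NRP-2 siRNA array 1 the other medians were 0.08 and 0.08. A fit without an array leaves its group with 1 array, which is assumed to vary like the other groups. In such fits 1 gene in place of 4 had that p with VEGF-C siRNA without scrambled siRNA array 2 (5.98% of all genes in the same fit, in place of 14.8%), and 1 in place of 2 had it with NRP-2 siRNA without scrambled siRNA array 1 (6.55% in place of 13.3%). The genes with the largest differences came from different roles. Both comparisons against scrambled siRNA use the same 2 scrambled arrays, so their values are given side by side and not correlated.

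**Figure D1:**
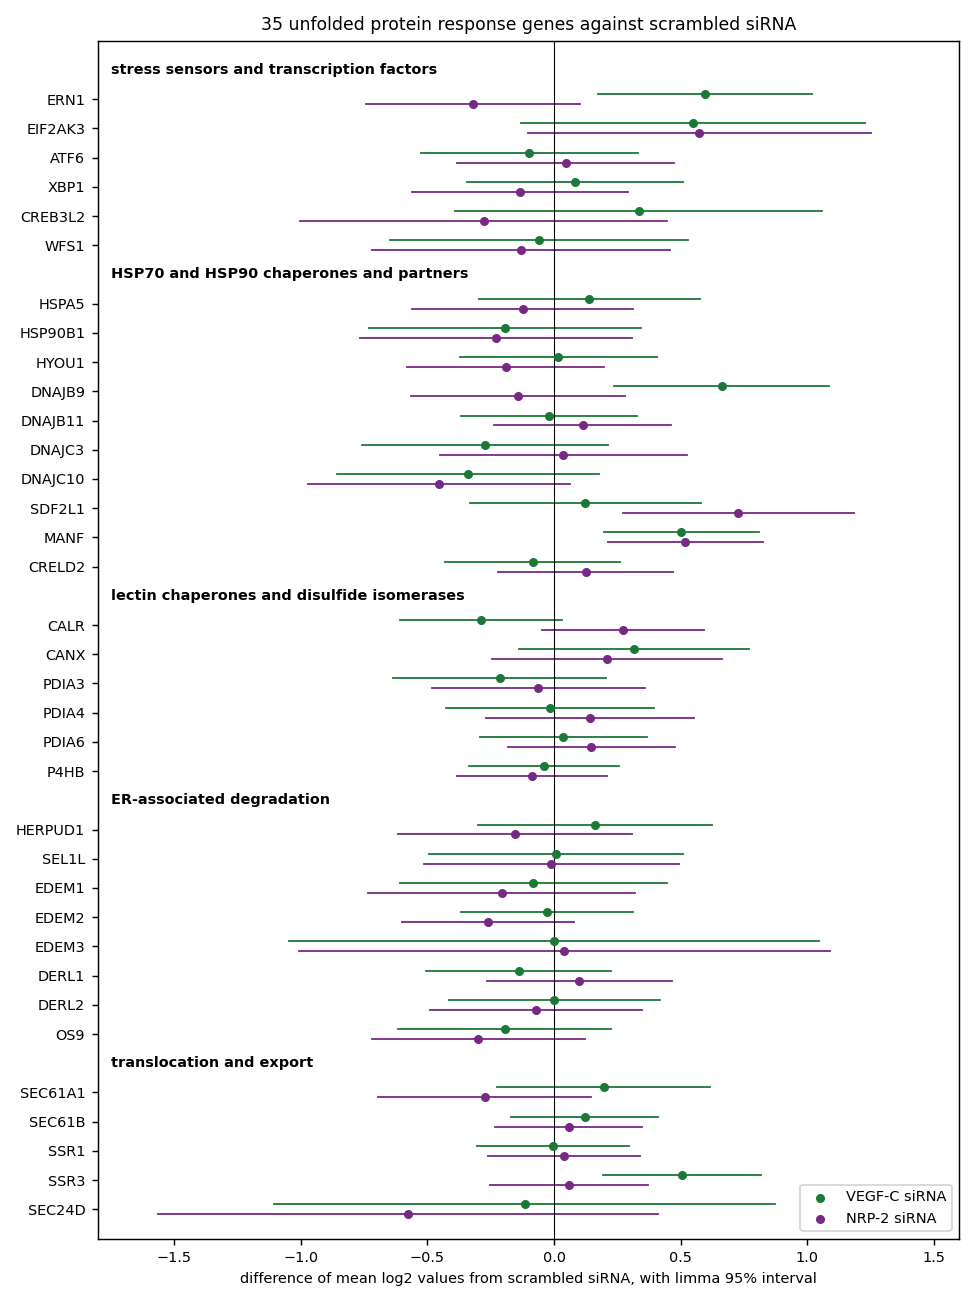
Differences of mean log2 values from scrambled siRNA (horizontal axis) for the 35 tested genes, grouped by role, with VEGF-C siRNA in green and NRP-2 siRNA in purple; bars are limma 95% intervals. Most intervals cross 0; those of ERN1, DNAJB9 and SSR3 lie above 0 with VEGF-C siRNA alone, that of SDF2L1 with NRP-2 siRNA alone, and that of MANF with both.

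Counting arrays rather than p, 13 of the 35 genes were higher on both VEGF-C siRNA arrays than on both scrambled arrays (26.8% of all genes) and 4 were lower (26.6%). The 13 were ERN1, EIF2AK3, XBP1, CREB3L2, HSPA5, HYOU1, DNAJB9, MANF, CANX, HERPUD1, SEC61A1, SEC61B and SSR3, and the 4 were DNAJC3, DNAJC10, CALR and OS9. With NRP-2 siRNA, 5 were higher on both arrays (EIF2AK3, SDF2L1, MANF, CALR and SEC61B; 25.3% of all genes) and 5 lower (ERN1, HYOU1, DNAJC10, EDEM2 and OS9; 24.4%). Between both siRNAs, 7 were higher with NRP-2 siRNA (DNAJB11, SDF2L1, CRELD2, CALR, PDIA4, PDIA6 and DERL1; 24.1%) and 10 lower (ERN1, XBP1, CREB3L2, HYOU1, DNAJB9, P4HB, HERPUD1, EDEM2, SEC61A1 and SSR3; 22.4%). EIF2AK3, MANF and SEC61B were thus above the scrambled arrays on all 4 siRNA arrays, and DNAJC10 and OS9 below. The share of all genes with either pattern is not given here, so these genes cannot be set against it. The comparisons share the scrambled arrays and are not independent, so no common response to the siRNAs is read from this list.

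Among the stress sensors and transcription factors, ERN1 separated the 2 siRNAs most. ERN1 encodes IRE1, the kinase and endoribonuclease that splices XBP1. Its log2 values were 11.04 and 11.06 on the scrambled arrays, 11.55 and 11.74 on the VEGF-C siRNA arrays and 10.54 and 10.92 on the NRP-2 siRNA arrays. The 3 groups did not overlap: VEGF-C siRNA was highest, scrambled siRNA in the middle and NRP-2 siRNA lowest. With VEGF-C siRNA the difference from scrambled was 0.60 (SE 0.17, 95% interval 0.17 to 1.02, limma adjusted p 0.255), or 1.51-fold. With NRP-2 siRNA it was -0.32 (SE 0.17, 95% interval -0.74 to 0.10, limma adjusted p 0.454). The difference of NRP-2 from VEGF-C siRNA, -0.92 (SE 0.17, 95% interval -1.34 to -0.49, limma adjusted p 0.119), was the largest in size of the 35 genes in that comparison. On a second, dimmer probe set of ERN1 VEGF-C siRNA lay 0.07 above scrambled and NRP-2 siRNA lay at -0.78, so both sets put NRP-2 below VEGF-C siRNA while the higher value over scrambled appeared on the brighter one.

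EIF2AK3, which encodes PERK, had log2 values of 10.77 and 11.30 on the scrambled arrays, 11.47 and 11.70 on the VEGF-C siRNA arrays and 11.32 and 11.90 on the NRP-2 siRNA arrays. All 4 siRNA arrays lay above both scrambled arrays, but the scrambled arrays themselves were far apart. The differences were 0.55 (SE 0.27, 95% interval -0.13 to 1.23, limma adjusted p 0.406) with VEGF-C siRNA and 0.57 (SE 0.27, 95% interval -0.10 to 1.25, limma adjusted p 0.423) with NRP-2 siRNA, and neither exceeded the spread between arrays by the test. Over the alternative settings they ran from 0.28 to 1.06 and from 0.29 to 0.97, with the highest values under the G2 and mitosis covariate. ATF6, the sensor cut in the Golgi, had values of 10.56 and 10.69 on the scrambled arrays, 10.59 and 10.46 on the VEGF-C siRNA arrays and 10.48 and 10.86 on the NRP-2 siRNA arrays, and all groups overlapped. Its differences were -0.10 (SE 0.17) and 0.05 (SE 0.17). Its 4 probe sets above the filter disagreed. They ran from -0.20 to 0.19 with VEGF-C siRNA and from -0.35 to 0.05 with NRP-2 siRNA, and 1 of them was lower on both NRP-2 siRNA arrays than on the 4 others, at -0.53 from VEGF-C siRNA, while the other 3 gave 0.09 to 0.19.

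XBP1, the target of IRE1 splicing, had log2 values of 11.62 and 11.63 on the scrambled arrays, 11.71 and 11.71 on the VEGF-C siRNA arrays and 11.28 and 11.70 on the NRP-2 siRNA arrays. The scrambled and VEGF-C siRNA pairs were each tight and differed by 0.08 (95% interval -0.34 to 0.51), while the NRP-2 siRNA arrays were spread. The difference with NRP-2 siRNA was -0.13 (95% interval -0.56 to 0.29). CREB3L2, a stress-activated factor of the ATF6 kind that supports secretion, had values of 11.09 and 11.13 on the scrambled arrays, 11.58 and 11.31 on the VEGF-C siRNA arrays and 10.41 and 11.25 on the NRP-2 siRNA arrays. The VEGF-C siRNA arrays were the highest, and NRP-2 siRNA array 1 stood below all others. Its difference of NRP-2 from VEGF-C siRNA was -0.61 (SE 0.29, 95% interval -1.34 to 0.11, limma adjusted p 0.341). Against scrambled siRNA it was -0.28, and 0.14 without NRP-2 siRNA array 1. WFS1, a membrane protein that restrains ATF6, differed by -0.06 and -0.13, and its groups overlapped on its brightest set. On a dimmer set both NRP-2 siRNA arrays were lower than the scrambled arrays, at -0.21. Of the 6 genes of this role, 4 were higher on both VEGF-C siRNA arrays than on the scrambled arrays (26.8% of all genes) and 0 lower (26.6%), and 1 of the 6, ERN1, had an unadjusted p under 0.05. With NRP-2 siRNA 1 was higher on both arrays (25.3%) and 1 lower (24.4%), and 0 reached that p.

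**Figure D2:**
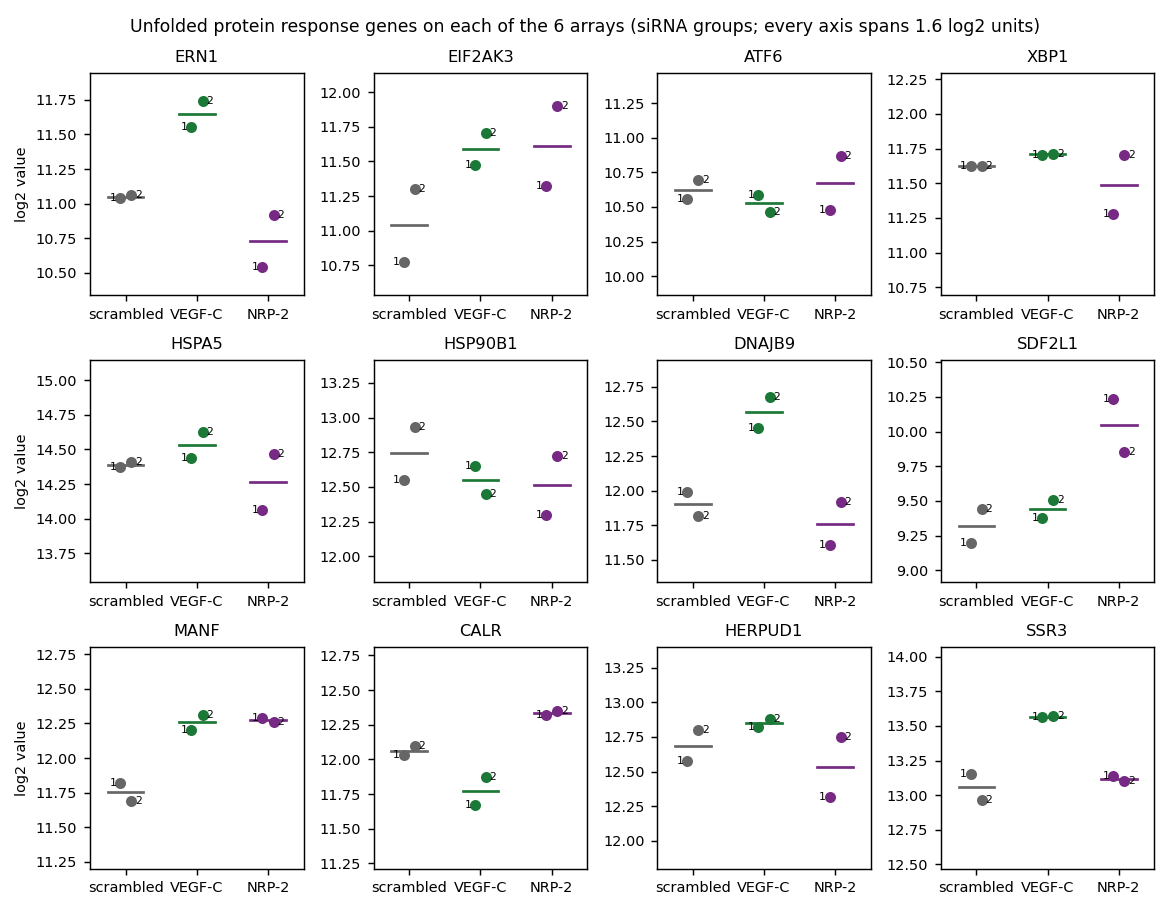
Log2 values (vertical axes, each spanning 1.6 log2 units) of 12 of the genes on each of the 6 arrays; points are arrays, numbered, and bars are group means. The VEGF-C siRNA arrays sit apart and high for ERN1, DNAJB9 and SSR3, and the NRP-2 siRNA arrays sit apart and high for SDF2L1 and CALR.

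The main chaperones of the lumen showed small differences. HSPA5, the HSP70 chaperone BiP that holds the sensors inactive, had log2 values of 14.37 and 14.41 on the scrambled arrays, 14.44 and 14.62 on the VEGF-C siRNA arrays and 14.07 and 14.47 on the NRP-2 siRNA arrays. The VEGF-C siRNA arrays lay just above the scrambled pair and the NRP-2 siRNA arrays on either side of it. The differences were 0.14 (95% interval -0.30 to 0.57) and -0.12 (-0.56 to 0.31), so changes of 1 log2 unit lay outside both intervals. HSP90B1, the HSP90 chaperone GRP94, had values of 12.55 and 12.93 on the scrambled arrays, 12.65 and 12.45 on the VEGF-C siRNA arrays and 12.30 and 12.72 on the NRP-2 siRNA arrays, and all groups overlapped. Its differences were -0.19 (SE 0.21) and -0.23 (SE 0.21). Its probe sets are of a kind that may also bind related transcripts, and 2 further sets shared with a microRNA gene were left out. The brightest sets of CALR and OS9 are of the same kind. HYOU1, the large HSP70-like exchange factor of BiP, differed by 0.02 and -0.19 (SE 0.15).

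The co-chaperone DNAJB9 (ERdj4) was highest with VEGF-C siRNA. DNAJB9 binds BiP, keeps IRE1 silent and is a known XBP1 target. Its log2 values were 11.99 and 11.82 on the scrambled arrays, 12.45 and 12.68 on the VEGF-C siRNA arrays and 11.61 and 11.92 on the NRP-2 siRNA arrays. Both VEGF-C siRNA arrays lay above all 4 other arrays, and the scrambled and NRP-2 siRNA arrays overlapped. The difference of VEGF-C siRNA from scrambled was 0.66 (SE 0.17, 95% interval 0.24 to 1.08, limma adjusted p 0.241), or 1.58-fold, and it kept its sign in all settings, from 0.55 to 0.77. NRP-2 siRNA lay -0.14 from scrambled (SE 0.17) and -0.81 (SE 0.17, 95% interval -1.23 to -0.38, limma adjusted p 0.128) from VEGF-C siRNA. The other probe sets of DNAJB9 gave 0.51 and 0.52 for VEGF-C siRNA and -0.42 and -0.39 for NRP-2 siRNA. These are the signs of the brightest set.

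MANF, a secreted neurotrophic factor that binds BiP and is released under stress, had log2 values of 11.82 and 11.69 on the scrambled arrays, 12.20 and 12.31 on the VEGF-C siRNA arrays and 12.29 and 12.26 on the NRP-2 siRNA arrays. All 4 siRNA arrays lay above both scrambled arrays, and the siRNA groups overlapped. The differences were 0.50 (SE 0.12, 95% interval 0.20 to 0.81, limma adjusted p 0.238) and 0.52 (SE 0.12, 95% interval 0.21 to 0.82, limma adjusted p 0.231), or 1.42-fold and 1.43-fold. The siRNA groups differed by 0.02 (95% interval -0.29 to 0.32). MANF has a single probe set, and its difference stayed between 0.44 and 0.58 in all settings of both comparisons. SDF2L1, a BiP partner of the lumen and a strong stress target, had values of 9.19 and 9.44 on the scrambled arrays, 9.38 and 9.51 on the VEGF-C siRNA arrays and 10.24 and 9.85 on the NRP-2 siRNA arrays. The NRP-2 siRNA arrays stood above the 4 others, and scrambled and VEGF-C siRNA overlapped. The difference with NRP-2 siRNA was 0.73 (SE 0.18, 95% interval 0.27 to 1.18, limma adjusted p 0.244), or 1.66-fold, and with VEGF-C siRNA 0.12 (SE 0.18). Between both siRNAs it was 0.60 (SE 0.18, 95% interval 0.15 to 1.06, limma adjusted p 0.193). SDF2L1 was also one of the 6 genes with a higher value on NRP-2 siRNA array 1 than on array 2, and it ranged from 0.54 to 0.92 over the settings.

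The other J-domain partners differed among themselves. DNAJC10 (ERdj5), a reductase that opens disulfide bonds for degradation, had log2 values of 12.69 and 12.72 on the scrambled arrays, 12.48 and 12.25 on the VEGF-C siRNA arrays and 11.99 and 12.51 on the NRP-2 siRNA arrays. All 4 siRNA arrays were below both scrambled arrays. The differences were -0.34 (SE 0.21, 95% interval -0.86 to 0.18, limma adjusted p 0.48) and -0.45 (SE 0.21, 95% interval -0.97 to 0.06, limma adjusted p 0.412). Its 4 probe sets above the filter were all lower with both siRNAs, from -0.25 to -1.10 with VEGF-C siRNA and from -0.20 to -0.67 with NRP-2 siRNA. DNAJC3, a BiP co-chaperone also known as p58IPK, differed by -0.27 and 0.04, and DNAJB11 (ERdj3) by -0.02 and 0.11. CRELD2, a secreted disulfide isomerase-like stress target, differed by -0.08 and 0.12. Of the 10 chaperone genes, 5 differences lay above 0 and 5 below in each comparison.

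Calreticulin and calnexin, the paired lectin chaperones of glycoprotein folding, had differences of opposite sign with VEGF-C siRNA. CALR had log2 values of 12.03 and 12.09 on the scrambled arrays, 11.67 and 11.87 on the VEGF-C siRNA arrays and 12.32 and 12.35 on the NRP-2 siRNA arrays. The groups did not overlap, with VEGF-C siRNA lowest and NRP-2 siRNA highest. CALR differed by -0.29 (SE 0.13, 95% interval -0.61 to 0.03, limma adjusted p 0.373) with VEGF-C siRNA and by 0.27 (SE 0.13, 95% interval -0.05 to 0.59, limma adjusted p 0.422) with NRP-2 siRNA. The difference between both siRNAs was 0.56 (SE 0.13, 95% interval 0.24 to 0.88, limma adjusted p 0.135), or 1.48-fold, in the opposite direction to ERN1 and DNAJB9. All 3 probe sets of CALR were lower with VEGF-C siRNA (-0.29, -0.32 and -0.66) and above 0 with NRP-2 siRNA (0.27, 0.04 and 0.18). CANX, the membrane-bound partner, had values of 13.08 and 13.36 on the scrambled arrays, 13.56 and 13.51 on the VEGF-C siRNA arrays and 13.24 and 13.62 on the NRP-2 siRNA arrays. The VEGF-C siRNA arrays lay above the scrambled pair by 0.32 (SE 0.18), and the NRP-2 siRNA arrays overlapped both. Its 4 probe sets above the filter gave 0.32 to 0.61 with VEGF-C siRNA and -0.02 to 0.54 with NRP-2 siRNA.

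The disulfide isomerases differed little on their brightest probe sets. PDIA3, which works with both lectins, differed by -0.21 (SE 0.17) with VEGF-C siRNA, and NRP-2 siRNA gave -0.06. PDIA4 differed by -0.02 and 0.14, PDIA6, which attenuates IRE1 signalling, by 0.04 and 0.15, and P4HB, the classical isomerase, by -0.04 and -0.09. PDIA3 had the widest of these 95% intervals, -0.63 to 0.21 with VEGF-C siRNA. The 4 probe sets of PDIA6 gave 0.10 to 0.15 with NRP-2 siRNA. Dimmer sets of P4HB gave -0.19 and -0.50 with NRP-2 siRNA. The set at -0.50 was lower on both NRP-2 siRNA arrays (7.59 and 7.58 against 7.75 and 8.41 on the scrambled arrays). It gave 0.005 with VEGF-C siRNA.

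On their brightest probe sets, the 8 tested degradation genes gave no unadjusted p under 0.05 in any comparison (limma, no adjusted p under 0.428). Dimmer sets of OS9 and SEL1L did. Among all genes 14.8%, 13.3% and 18.2% had that p (VEGF-C against scrambled, NRP-2 against scrambled, NRP-2 against VEGF-C siRNA). A count of 0 among 8 genes therefore does not set this role apart. In that order, 3, 2 and 2 of the 8 differences lay above 0 (49.3%, 51.8% and 52.7% of all genes) and 5, 6 and 6 below. Without NRP-2 siRNA array 1, 5 of the 8 lay above 0 in each of the last 2 comparisons. HERPUD1, which recruits the degradation machinery and is an early stress reporter, had log2 values of 12.58 and 12.80 on the scrambled arrays, 12.82 and 12.88 on the VEGF-C siRNA arrays and 12.32 and 12.75 on the NRP-2 siRNA arrays. The VEGF-C siRNA arrays were the highest and NRP-2 siRNA array 1 the lowest. The differences were 0.16 (SE 0.18, 95% interval -0.30 to 0.62, limma adjusted p 0.709) and -0.15 (SE 0.18, 95% interval -0.61 to 0.31, limma adjusted p 0.726). OS9, a lectin that delivers misfolded glycoproteins to the ligase, had values of 10.25 and 10.52 on the scrambled arrays, 10.21 and 10.16 on the VEGF-C siRNA arrays and 9.93 and 10.24 on the NRP-2 siRNA arrays, so all 4 siRNA arrays lay below both scrambled arrays. OS9 differed by -0.19 (SE 0.17) and -0.30 (SE 0.17), and its second probe set by -0.51 and -0.61. In a limma fit of all single-gene probe sets, that second set had unadjusted p of 0.0117 and 0.00603 (adjusted p 0.341 and 0.308). EDEM2, which helps to mark glycoproteins for degradation by trimming their mannose, differed by -0.03 and -0.26 and was lower on both NRP-2 siRNA arrays. Its relatives EDEM1 (-0.08 and -0.21) and EDEM3 overlapped between groups. EDEM3 spanned 9.58 and 10.62 on the NRP-2 siRNA arrays alone, wider than any difference between its group means. SEL1L, the ligase scaffold, differed by 0.01 and -0.01, but its dimmer probe sets ranged from -0.68 to 0.09 with NRP-2 siRNA. The sets at -0.68 and -0.41 had limma unadjusted p of 0.0427 and 0.0143 in that fit (adjusted p 0.536 and 0.38). On their brightest sets the channel proteins DERL1 (-0.14 and 0.10) and DERL2 (-0.07 with NRP-2 siRNA) overlapped with scrambled siRNA in both comparisons. A dimmer set of DERL2 gave 0.56 with NRP-2 siRNA, higher on both arrays (7.24 and 7.51 against 6.80 and 6.83), and 0.14 with VEGF-C siRNA. A dimmer set of DERL1 was lower on both VEGF-C siRNA arrays (-0.17), while another gave -0.003.

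Of the 5 translocation and export genes, 1 difference of NRP-2 from VEGF-C siRNA lay above 0 (52.7% of all genes) and 4 below, with a median of -0.45. Of the 4, SSR3 and SEC61A1 were lower on both NRP-2 siRNA arrays (22.4% of all genes) and had an unadjusted p under 0.05 (8.66%), while SEC61B (-0.06) and SEC24D overlapped. The median was -0.23 with all probe sets of a gene averaged, -0.15 without VEGF-C siRNA array 2 and -0.03 without NRP-2 siRNA array 1. SSR3, a subunit of the translocon-associated complex, had log2 values of 13.15 and 12.97 on the scrambled arrays, 13.56 and 13.57 on the VEGF-C siRNA arrays and 13.14 and 13.10 on the NRP-2 siRNA arrays. The VEGF-C siRNA arrays were above the 4 others and nearly equal to each other. The difference from scrambled was 0.51 (SE 0.12, 95% interval 0.19 to 0.82, limma adjusted p 0.238), or 1.42-fold, and all 4 probe sets were above 0 (0.32 to 0.60). With NRP-2 siRNA the brightest set gave 0.06 and the others up to 0.44, and the difference of NRP-2 from VEGF-C siRNA was -0.45 (SE 0.12, 95% interval -0.76 to -0.14, limma adjusted p 0.175). The other 3 probe sets gave -0.14, -0.17 and -0.18 for that comparison, each with an unadjusted p above 0.05. SSR1, another subunit of that complex, differed by 0.04 with NRP-2 siRNA, and its 6 probe sets ran from -0.61 to 0.09 with VEGF-C siRNA, so no direction can be given for it. SEC61A1, the channel-forming subunit of the translocon, had values of 11.05 and 10.78 on the scrambled arrays, 11.08 and 11.14 on the VEGF-C siRNA arrays and 10.49 and 10.79 on the NRP-2 siRNA arrays. NRP-2 siRNA differed from VEGF-C siRNA by -0.47 (SE 0.17, 95% interval -0.89 to -0.05, limma adjusted p 0.243) and overlapped with scrambled siRNA. SEC61B, a small subunit of the same channel, was higher on all 4 siRNA arrays, by only 0.12 and 0.06.

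SEC24D, a coat subunit of the vesicles that carry cargo to the Golgi, differed more between the NRP-2 siRNA arrays than between group means. Its log2 values were 11.18 and 10.92 on the scrambled arrays, 10.62 and 11.25 on the VEGF-C siRNA arrays and 9.95 and 10.998 on the NRP-2 siRNA arrays. NRP-2 siRNA array 1 stood below all others and array 2 lay within the scrambled range. The difference of NRP-2 siRNA from scrambled was -0.58 (SE 0.39, 95% interval -1.56 to 0.41, limma adjusted p 0.533). It was -0.05 without NRP-2 siRNA array 1 and -1.10 without array 2.

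**Figure D3:**
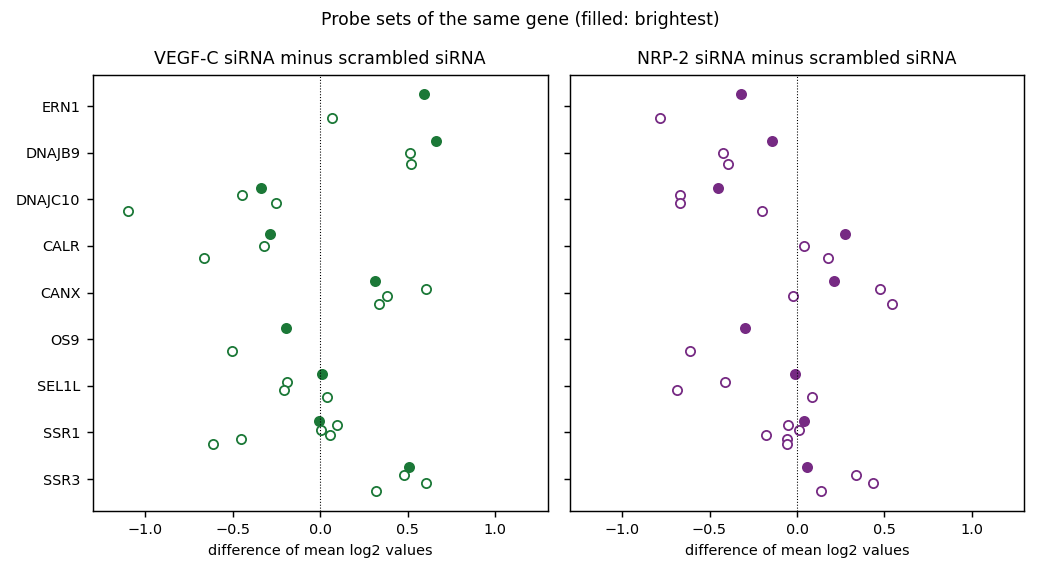
Differences of mean log2 values from scrambled siRNA (horizontal axes) for each probe set above the filter of 9 genes, with VEGF-C siRNA on the left and NRP-2 siRNA on the right; filled points are the brightest set, which stands for the gene. All sets of DNAJB9 and SSR3 lie above 0 with VEGF-C siRNA (0.51 to 0.66 and 0.32 to 0.60), all sets of DNAJC10 lie below 0 in both panels, and the sets of SSR1 disagree.

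Of the 22 genes with more than 1 probe set above the filter, 17 had the same sign on all of them in the VEGF-C comparison and 13 in the NRP-2 comparison. The remaining 13 of the 35 genes had a single set above the filter, among them XBP1, EIF2AK3, MANF, SDF2L1 and HERPUD1, and so have no second reading here. Sets of the same gene are read from the same arrays and are not replicates.

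The NRP-2 siRNA arrays differed from each other more than the other pairs did, in these genes and over all genes. The median absolute difference within a pair was 0.35 for the 35 genes and 0.23 for all genes with NRP-2 siRNA, 0.17 and 0.14 in the scrambled pair, and 0.13 and 0.18 with VEGF-C siRNA. Array 2 was above array 1 for 29 of the 35 genes (49.9% of all genes), by a median of 0.31 log2 units (-0.0004 for all genes). In the scrambled pair array 2 was above for 25 of 35 (50.1%), by a median of 0.06, and in the VEGF-C pair for 22 of 35 (51%), by 0.04. NRP-2 siRNA array 1 was the lowest of the 6 arrays for 15 of the 35 genes (22.7% of all genes) and the highest for 1 (26.4%). NRP-2 siRNA array 2 was the highest for 12 (12.7%). Without array 1 the median difference of the 35 genes from scrambled siRNA was 0.08. Without array 2 it was -0.15. In that fit, where the other groups alone supply the spread, 8 of the 35 genes had an unadjusted p under 0.05 (22.9%), against 24.3% of all genes. Under the other scalings and with all probe sets averaged, array 1 was the lowest for 15 to 17 genes. The G2 and mitosis genes differed between array 2 and array 1 in all 3 pairs, by medians of -1.66 (scrambled), -0.68 (VEGF-C siRNA) and -1.02 (NRP-2 siRNA), and the S phase and replication genes by -0.20, -0.89 and -1.13. Their part in the difference between the NRP-2 siRNA arrays was not tested.

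**Figure D4:**
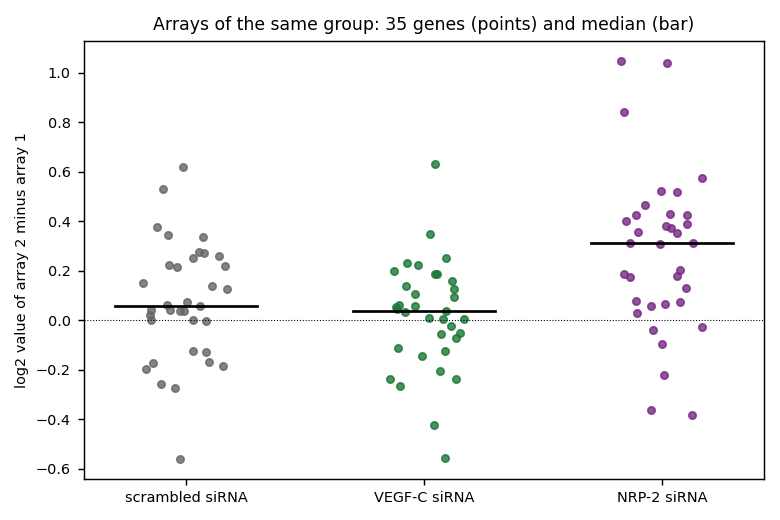
Log2 value of array 2 minus array 1 of the same group (vertical axis) for the 35 genes; points are genes and bars are medians. The NRP-2 siRNA pair lies mostly above 0 with a median of 0.31, against 0.06 for the scrambled pair and 0.04 for the VEGF-C siRNA pair.

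A list of 15 further genes, none among the 37, was drawn up as PERK and ATF4 output, an arm that restores translation and turns on amino acid and redox genes. Their values are mRNA levels, and whether PERK drove them was not tested. The list was chosen with earlier results of these data known. Its counts beside the shares of all genes are therefore descriptive and cannot serve as a test. With VEGF-C siRNA, 12 of the 15 were higher on both arrays than on both scrambled arrays (26.8% of all genes) and 1 lower (26.6%), with a median of 0.33 and 4 higher at an unadjusted p under 0.05 (6.95% of all genes). With NRP-2 siRNA 8 were lower on both arrays (24.4% of all genes) and 0 higher (25.3%), with a median of -0.28 and 0 at that p. Between both siRNAs 11 were lower on both NRP-2 arrays (22.4%), 9 at an unadjusted p under 0.05 (8.66% of all genes), with a median of -0.78. None passed the adjusted test. The 35 unfolded protein response genes had medians of -0.000125, -0.06 and -0.06 in the same comparisons. Leaving out single arrays moved the medians of the 15 between 0.31 and 0.35, between -0.16 and -0.36, and between -0.49 and -0.84. With the G2 and mitosis covariate the first was 0.59.

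PPP1R15A (GADD34), which directs the phosphatase that undoes the PERK signal, had log2 values of 7.79 and 7.39 on the scrambled arrays, 8.38 and 8.30 on the VEGF-C siRNA arrays and 7.07 and 7.27 on the NRP-2 siRNA arrays. The 3 groups did not overlap, in the same order as for ERN1. The differences were 0.75 (SE 0.18, 95% interval 0.30 to 1.19, limma adjusted p 0.238) and -0.42 (SE 0.18, 95% interval -0.86 to 0.02, limma adjusted p 0.388). SESN2, a stress-induced regulator of growth signalling, differed by 1.18 and -0.05, CHAC1, which breaks down glutathione, by 0.51 and -0.28, and NFE2L2, the redox factor NRF2, by 0.32 and 0.07. These 4 genes were named for having the lowest p-values of the list.

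**Figure D5:**
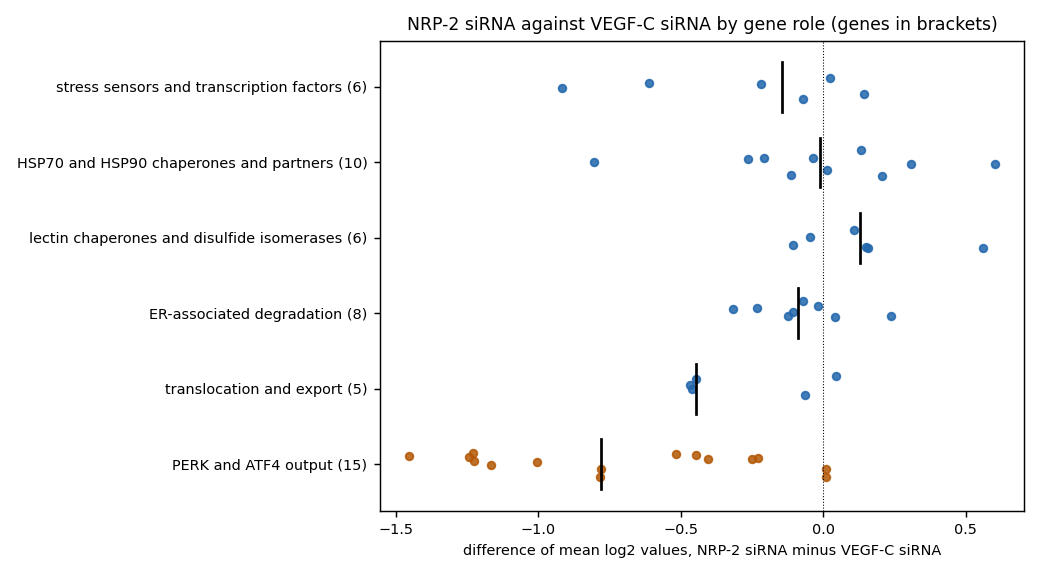
Difference of mean log2 values, NRP-2 siRNA minus VEGF-C siRNA (horizontal axis), for the genes of each role (points) with the median of the role (bars); the 15 genes of PERK and ATF4 output are in orange. Translocation and export genes have a median of -0.45, lectin chaperones and isomerases one of 0.13, and the PERK and ATF4 output genes one of -0.78.

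Other genes of the endoplasmic reticulum, from lists that exclude the 37, also passed no adjusted test. The shares of all genes at an unadjusted p under 0.05 were 6.95% higher and 7.8% lower with VEGF-C siRNA, and 6.43% and 6.85% with NRP-2 siRNA. Of 26 further folding and glucosidase genes, 1 was higher and 3 lower at that p with VEGF-C siRNA, and 1 and 1 with NRP-2 siRNA. Their differences lay above 0 for 8 and below for 18 with VEGF-C siRNA (49.3% of all genes above 0). With NRP-2 siRNA these counts were 11 and 15 (51.8% above 0). On both arrays of the siRNA, 5 were higher and 8 lower with VEGF-C siRNA (26.8% and 26.6% of all genes). With NRP-2 siRNA 7 were higher and 5 lower (25.3% and 24.4%). Their 4 lowest p-values belonged to TXNDC12, a thioredoxin-fold oxidoreductase (0.76 and 0.78), TXNDC11 (0.05 and -1.20), TMX4 (-0.72 and 0.11) and UGGT2, a sensor of glycoprotein folding (-0.65 and -0.29). Of 28 further degradation genes, 0 were higher and 3 lower with VEGF-C siRNA, and 0 and 1 with NRP-2 siRNA. As a list they were balanced: 14 differences lay above 0 and 14 below in either comparison. On both arrays of the siRNA, 8 were higher and 8 lower with VEGF-C siRNA (26.8% and 26.6% of all genes), and 6 and 6 with NRP-2 siRNA (25.3% and 24.4%). The 4 with the lowest p-values were ERLIN2, TRIM13, ERLEC1 and FOXRED2. ERLIN2, which helps degrade membrane receptors, differed by -0.59 and -0.72, TRIM13, a membrane-anchored ligase, by -0.53 and -0.28, the lectin ERLEC1 by -0.29 and -0.14 and FOXRED2 by -0.29 and -0.21.

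Of 29 further translocon, signal peptidase and oligosaccharyltransferase genes, 1 was higher with VEGF-C siRNA at an unadjusted p under 0.05 and 1 lower with NRP-2 siRNA. Their differences lay above 0 for 9 and below for 20 with either siRNA (49.3% and 51.8% of all genes above 0). On both arrays of the siRNA, 5 were higher and 9 lower with VEGF-C siRNA (26.8% and 26.6% of all genes). With NRP-2 siRNA 6 were higher and 9 lower (25.3% and 24.4%). The signal recognition particle subunits SRP68, SRP19 and SRP72 differed by 0.44, 0.18 and -0.04 with VEGF-C siRNA and by 0.21, -0.35 and -0.30 with NRP-2 siRNA, and the signal peptidase subunit SPCS1 by -0.06 and -0.32. Of 15 further COPII coat genes, 1 was lower with VEGF-C siRNA, and 1 was higher and 2 lower with NRP-2 siRNA. Their differences lay above 0 for 3 and below for 12 with VEGF-C siRNA, and for 4 and 11 with NRP-2 siRNA. On both arrays, 2 were higher and 7 lower with VEGF-C siRNA, and 3 and 3 with NRP-2 siRNA. The shares of all genes are those just given. The coat GTPases SAR1A and SAR1B differed by -0.46 and 0.34 with VEGF-C siRNA and by -0.10 and 0.41 with NRP-2 siRNA. MCFD2, a cargo receptor subunit, differed by -0.18 and -0.38, and SEC23B, the partner coat subunit of SEC24D, by -0.25 and -0.45.

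Of 7 other genes of the CREB3 and ATF6 family and their proteases, 0 reached an unadjusted p under 0.05 against scrambled siRNA. CREB3 differed by 0.26 and -0.06, ATF6B by -0.36 and 0.07, CREB3L1 by -0.82 and -0.56 and MBTPS2, the site-2 protease that frees ATF6, by -0.37 and -0.11. Of 5 tested genes whose mRNA is known to be cut by IRE1, 1 was higher with NRP-2 siRNA at that p (6.43% of all genes), SCARA3 (0.05 and 1.15). Differences lay above 0 for 2 of the 5 and below for 3 with either siRNA (49.3% and 51.8% of all genes above 0). All 5 overlapped with VEGF-C siRNA. With NRP-2 siRNA 1 was higher and 1 lower on both arrays (25.3% and 24.4%). BLOC1S1, the best known of them, differed by -0.01 and -0.22, HGSNAT by 0.11 and -0.01 and SPARC by -0.25 and 0.20. Of 14 heat shock genes of the cytosol and mitochondria, 0 reached that p with VEGF-C siRNA, and 0 were higher and 1 lower with NRP-2 siRNA. CHORDC1 differed by -0.28 and -0.83, HSPH1 by -0.25 and 0.05, DNAJB1 by 0.13 and 0.25 and HSP90AA1 by -0.35 and 0.04.

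Returning to the promoters, the 10 genes with an ERSE or ERSE-II match, all of them tested, had median differences of 0.06 with VEGF-C siRNA, from -0.29 (CALR) to 0.32 (CANX), and of 0.000325 with NRP-2 siRNA, from -0.23 (HSP90B1) to 0.73 (SDF2L1). The 22 tested genes whose promoter held neither element had medians of -0.003 and -0.04. The genes with the largest differences lay on both sides of this split: SDF2L1 and CALR hold an element, and ERN1, EIF2AK3, DNAJB9 and MANF do not. HSPA5, HSP90B1, CRELD2, PDIA6 and XBP1, each with a printed ERSE, had differences between -0.19 and 0.14 with VEGF-C siRNA. These medians were not compared by a test.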

How the data were processed

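Total RNA of PC3 cells was measured on 6 arrays. Per the submitters' processing notes, Partek and GCRMA were used, and the authors deposited the resulting log2 values, 1 per probe set. Tool versions were not given in the sources used here. Values of this kind compress differences near their floor. Probe sets were named by GEO's platform annotation: 41091 named 1 gene, 1801 several and 11721 none, apart from 62 controls. A gene was represented by its brightest single-gene probe set with a mean of at least log2 4. Differences were tested with limma 3.58.1 (R 4.3.3; lmFit and eBayes over all 6 arrays, two-sided, 3 residual degrees of freedom, Benjamini-Hochberg over 11131 genes, threshold 0.05), checked on simulated data. The number of arrays limits the precision. The members and lists were chosen with earlier results of these data known. Genes named with array values were up to 6 members with the largest difference in each comparison, the sensors, XBP1 and the usual reporters HSPA5, HSP90B1, DNAJB9, HERPUD1 and SDF2L1; from each other list, the 4 genes with the smallest unadjusted p against scrambled siRNA. CANX and OS9 were added after their values were seen. Alternatives were no filter, the mean of all probe sets, equal medians, quantile normalization, a trended robust prior, each array left out, the replicate number as a block, a covariate from the mean G2 and mitosis value of each array, and only the 4 arrays compared. Promoters came from RefSeq, GRCh38.p14.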

Additional observations from a re-analysis of the deposited data

How the results depend on the processing

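No member passed an adjusted p of 0.05 in any comparison under any setting run (limma). Over all genes, 1 gene passed with VEGF-C siRNA against scrambled siRNA and 1 with NRP-2 against VEGF-C siRNA when the low-value filter was dropped, and 0 in every other setting. With VEGF-C siRNA the members' median was -0.000125, -0.028 with all probe sets of a gene averaged, 0.16 under the G2 and mitosis covariate (28 of 35 above 0), and -0.0018 to 0.047 with single arrays left out. A fit without 1 array of a group rests on the other groups for that group's spread. The members at an unadjusted p under 0.05 numbered 1 to 4 with single arrays left out, the lowest without scrambled siRNA array 2 (5.98% of all genes in that fit). With NRP-2 siRNA they numbered 4 with averaged probe sets and 1 to 8 with single arrays left out (1 without scrambled siRNA array 1, where 6.55% of all genes had it, and 8 without NRP-2 siRNA array 2, where 24.3% had it), and the median ran from -0.15 to 0.079. Between both siRNAs they numbered 4 to 12, and the median ran from -0.20 to 0.084 (12 and -0.20 without NRP-2 siRNA array 2, where 21.5% of all genes had that p; 0.084 without array 1). Across the 14 alternatives 17, 19 and 21 of the 35 members kept their sign in the 3 comparisons. The replicate numbers are shared between groups but, with only 2 pairs, do not establish a pairing; deviations of same-numbered arrays correlated at 0.11, 0.58 and 0.12 over genes. With the replicate number as a block, 5, 3 and 6 members had an unadjusted p under 0.05 in place of 4, 2 and 6, and no call changed. The scalings for the counts on NRP-2 siRNA array 1 were chosen after seeing the data. With 2 arrays a group, the limma intervals of the members were mostly wider than their differences, and probe sets near the floor, such as those of DERL3, cannot show a change.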
